A study of Mus musculus with 4 samples.

Results

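The Zfp951 and Abcg3 locus was taken as every pair of anchors on chromosome 5 with at least 1 anchor overlapping the window from 104.3 to 105.3 Mb of GRCm38. An anchor is a genomic interval between which contacts were counted. The locus held 43 of the 56562 anchors in the table and 1842 of its 1513030 pairs. It was chosen because counts there were known to be low in D2, so the differences between strains are given as a description with no test.

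H3K27ac HiChIP sequences DNA ends ligated together in fixed nuclei after enrichment for acetylated lysine 27 of histone H3, a mark of active promoters and enhancers. It was done in mouse embryonic stem cells grown with serum, LIF and the inhibitors PD0325901 and CHIR99021. The B6 group was 2 lines of strain C57BL/6J, B6 4-1 (replicate 1) and B6 5-1 (replicate 2), and the D2 group was 2 lines of strain DBA/2J, D2 2-9 (replicate 1) and D2 5-5 (replicate 2). No other genetic change or treatment is named for either group, and each line gave 1 library.

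The library totals were 2908329 and 2800847 counts in B6 and 2767882 and 2944258 in D2. Anchors over start sites of the pluripotency genes Pou5f1, Nanog, Sox2, Klf4, Zfp42 and Tbx3 each had at least 485 counts over the B6 libraries, and Nanog, with 2895 there and 4446 in D2, the most. Start sites of Esrrb and Tfcp2l1 had no anchor. Of the 5 fibroblast genes checked, Col1a1, Col1a2 and Acta2 had no anchor at a start site, Thy1 had 40 counts over the B6 libraries and 30 in D2, and Vim, which is not particular to fibroblasts, had 119 and 239, with both D2 libraries above both B6 libraries. Among the primitive endoderm genes checked, Foxa2 had no anchor at a start site. Gata6 had 89 counts over the B6 libraries and 84 in D2, Gata4 58 and 52, and Sox17 107 and 121. Of the neural genes checked, Pax6 had 2 anchors, with 78 and 81 counts and 66 and 66. Sox1 had 169 and 250, with both D2 libraries above both B6 libraries. Of the pluripotency genes, Nanog, Sox2 and Zfp42 also had both D2 libraries above both B6 libraries, and Klf4 had both below. Of all anchors in the table with at least 20 counts, 21.5% lay above in this way and 28% below. The part of other cells in the results was not tested. In the labels, 10cyc marks D2 replicate 1 where 8cyc marks the others. Below, the values of a strain are always given for replicate 1 and then replicate 2.

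Zfp951 belongs to the zinc finger genes, which encode proteins that bind DNA through zinc-stabilised fingers and often lie in clusters of related copies. Abcg3 belongs to the G subfamily of ATP-binding cassette transporters, membrane proteins that move substrates by hydrolysing ATP. On one side of them lie Mepe, Spp1 (osteopontin) and Pkd2 (the cation channel polycystin-2), and on the other the Gbp genes, which encode interferon-induced guanylate-binding GTPases.

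Zfp951 runs on the minus strand from 104813169 to 104860070 and Abcg3, also on the minus strand, from 104935057 to 104982718 (GENCODE M21). Their RefSeq promoters (250 bases before to 50 after a start site, build GRCm38.p6) are shown because the counts at these start sites differed between the genes. The Zfp951 promoter is chr5:104859978-104860277 and the Abcg3 promoter chr5:104982668-104982967, both on the minus strand. Capitals mark CCAAT in Zfp951 and CCGCCC, the reverse complement of GGGCGG, in Abcg3.

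Zfp951 promoter: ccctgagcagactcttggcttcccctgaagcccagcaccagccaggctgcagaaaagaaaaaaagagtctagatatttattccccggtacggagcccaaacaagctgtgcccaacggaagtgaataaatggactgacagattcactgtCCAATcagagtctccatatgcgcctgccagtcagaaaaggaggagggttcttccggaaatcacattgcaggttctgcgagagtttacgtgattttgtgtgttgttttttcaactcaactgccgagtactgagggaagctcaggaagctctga
Abcg3 promoter: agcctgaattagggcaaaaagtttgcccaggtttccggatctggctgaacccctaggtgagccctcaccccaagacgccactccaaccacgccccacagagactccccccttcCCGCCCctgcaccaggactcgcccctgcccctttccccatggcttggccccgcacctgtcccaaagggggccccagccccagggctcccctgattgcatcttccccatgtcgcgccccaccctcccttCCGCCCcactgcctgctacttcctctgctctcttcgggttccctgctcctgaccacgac

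Zfp951 held 1 CCAAT motif, which 37.4% of 32851 RefSeq promoters of this length hold on either strand, and 8 CG dinucleotides at 49% GC. The Abcg3 promoter held 2 GGGCGG motifs, which 35.7% of the promoters hold, and 11 CG dinucleotides at 65.3% GC. A blastn search of the assembled chromosomes with the Abcg3 promoter found itself only. The same search with the Zfp951 promoter (E-value up to 1e-10) found 12 matches, of which 10 lay in the window, in 9 of its anchors. The other matches were on chromosomes 12 and 19.

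Matches in the window lay on the plus strand in the 5 cases up to 104770490 and on the minus strand in the 5 cases from 104798805 on. Below are the matches in the anchor of the RefSeq gene Zfp33b (chr5:104571434-104571732, plus strand), in the anchor with the deepest measured loss (chr5:104722657-104722956, plus strand, without its last bases) and in the anchor retained in D2 (chr5:104798805-104799099, minus strand). They are shown because anchors with a related promoter sequence differed widely, with log2 ratios of D2 over B6 from -5.20 to -0.17. Capitals mark bases that differ from the Zfp951 promoter or have no counterpart in it.

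Copy in the Zfp33b anchor: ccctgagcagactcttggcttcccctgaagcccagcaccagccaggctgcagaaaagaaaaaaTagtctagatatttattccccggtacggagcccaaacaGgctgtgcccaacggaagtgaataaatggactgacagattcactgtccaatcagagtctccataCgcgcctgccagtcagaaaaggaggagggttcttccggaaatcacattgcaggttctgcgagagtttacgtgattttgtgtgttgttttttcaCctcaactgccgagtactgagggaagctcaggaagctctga
Copy in the deepest anchor: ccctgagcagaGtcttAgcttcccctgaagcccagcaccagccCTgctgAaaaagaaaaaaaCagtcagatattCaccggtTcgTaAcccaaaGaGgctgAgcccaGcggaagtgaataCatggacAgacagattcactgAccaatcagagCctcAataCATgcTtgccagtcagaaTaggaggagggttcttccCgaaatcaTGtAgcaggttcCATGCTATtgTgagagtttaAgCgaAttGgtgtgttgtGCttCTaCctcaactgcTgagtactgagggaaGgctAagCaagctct
Copy in the retained anchor: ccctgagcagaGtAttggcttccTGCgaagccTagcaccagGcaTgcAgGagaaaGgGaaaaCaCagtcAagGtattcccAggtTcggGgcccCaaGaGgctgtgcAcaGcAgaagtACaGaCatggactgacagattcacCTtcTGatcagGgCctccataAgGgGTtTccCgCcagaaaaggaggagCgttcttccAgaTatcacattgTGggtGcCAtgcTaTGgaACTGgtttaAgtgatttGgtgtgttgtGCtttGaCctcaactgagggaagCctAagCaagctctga

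The Zfp33b copy was 98.3% identical to the Zfp951 promoter and lay in the RefSeq promoter of Zfp33b. Copies in the deepest and retained anchors were 81.6% and 74.1% identical to it. Of the 9 anchors with a copy, 7 were low in D2 by the rule below, and 9 of the 16 low anchors had no copy. By that rule 39.0% of the 41 window anchors with at least 20 counts were low, and 5.11% in the table. A link between copies and low counts was not tested.

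Over all rows of the window, B6 had 2727 and 2718 counts and D2 had 1682 and 1480. As CPM, counts scaled to a fixed library total, B6 had 954 ± 23.2 and D2 had 555 ± 74.3 (SD, n = 2). This is a log2 ratio of D2 over B6 of -0.78. The D2 libraries lay below both B6 libraries. The rest of chromosome 5 had a log2 ratio of 0.02, with 193221 and 182848 counts in B6 and 186280 and 195607 in D2. At matched distances the window was also lower: pairs of 5 to 50 kb had a log2 ratio of -1.07 in the window and 0.08 in all other rows.

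Of the 43 anchors, 41 had at least 20 counts over the 4 libraries. In D2, 39 of them had a log2 ratio below 0 and 2 above. The median over the 41 anchors was -0.71, beside -0.03 over all anchors with at least 20 counts in the table. Both D2 libraries lay below both B6 libraries at 32 anchors, where 28% of all tested anchors in the table do so, and above them at 1 anchor (21.5% in the table). An edgeR quasi-likelihood fit of the whole table called 20 of the 41 anchors, all lower in D2, and called 9.75% of all tested anchors, 7.08% lower in D2. These members were chosen on that contrast, so nothing is read from their calls.

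**Figure D1:**
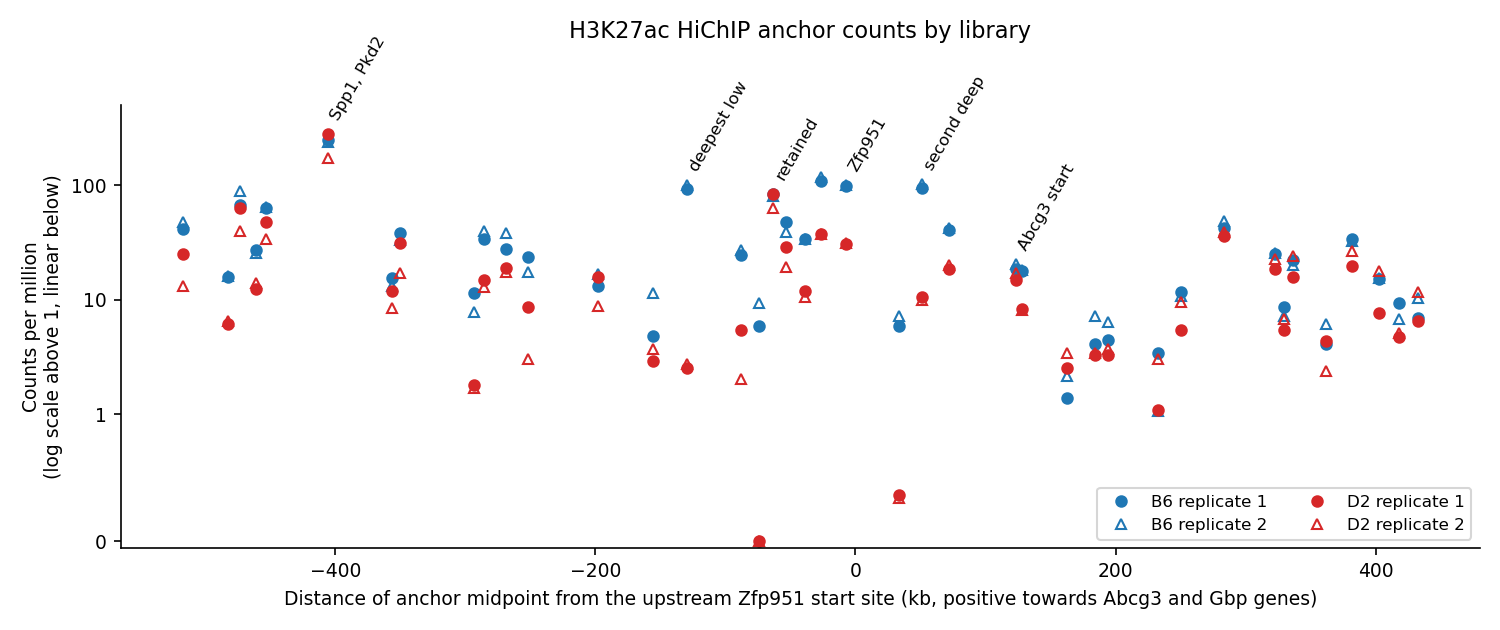
CPM of the 41 anchors with at least 20 counts (y axis, logarithmic above 1), by distance of the anchor midpoint from the upstream Zfp951 start site (x axis, kb), with 1 point per library. The B6 and D2 points overlap at the retained anchor, where D2 replicate 2 is the lowest, and are far apart at the anchors called deepest low and second deep.

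An anchor was called low where its log2 ratio was -1 or less and both D2 libraries lay below both B6 libraries. By this rule 16 of the 41 anchors (39.0%) were low, and 5.11% of all tested anchors in the table. The 16 lay in 6 separate runs, so the loss was patchy and not continuous. The first low anchor of the window started at 104338784 and the last ended at 104989600, a span of 650.816 kb in which 11 of the 27 anchors with at least 20 counts were not low. Just inside the threshold were the anchor over the 3′ end of Abcg3 (-1.09) and the anchor starting at 104986789 (-1.13), and just outside was the anchor starting at 104397595 (-0.99). Among the 73 anchors scanned within 1 Mb on each side of the window, 2 were low: chr5:104164218-104166310 and chr5:105641391-105643723, the second with 18.4 CPM in B6 and 4.04 in D2.

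The longest run of low anchors held 6 anchors from 104819236 to 104935846, or 116.61 kb. It covered Zfp951 without its 3′ end, the space between the genes with the RefSeq pseudogene Gm29716, and the 3′ end of Abcg3. The next longest held 4 anchors from 104703522 to 104787028. Of the 16 low anchors, 10 overlapped no GENCODE gene and 2 lay over a protein-coding start site of GENCODE, both of them of Zfp951. The low anchor of Zfp33b also held the promoter of a protein-coding gene, by RefSeq.

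**Figure D2:**
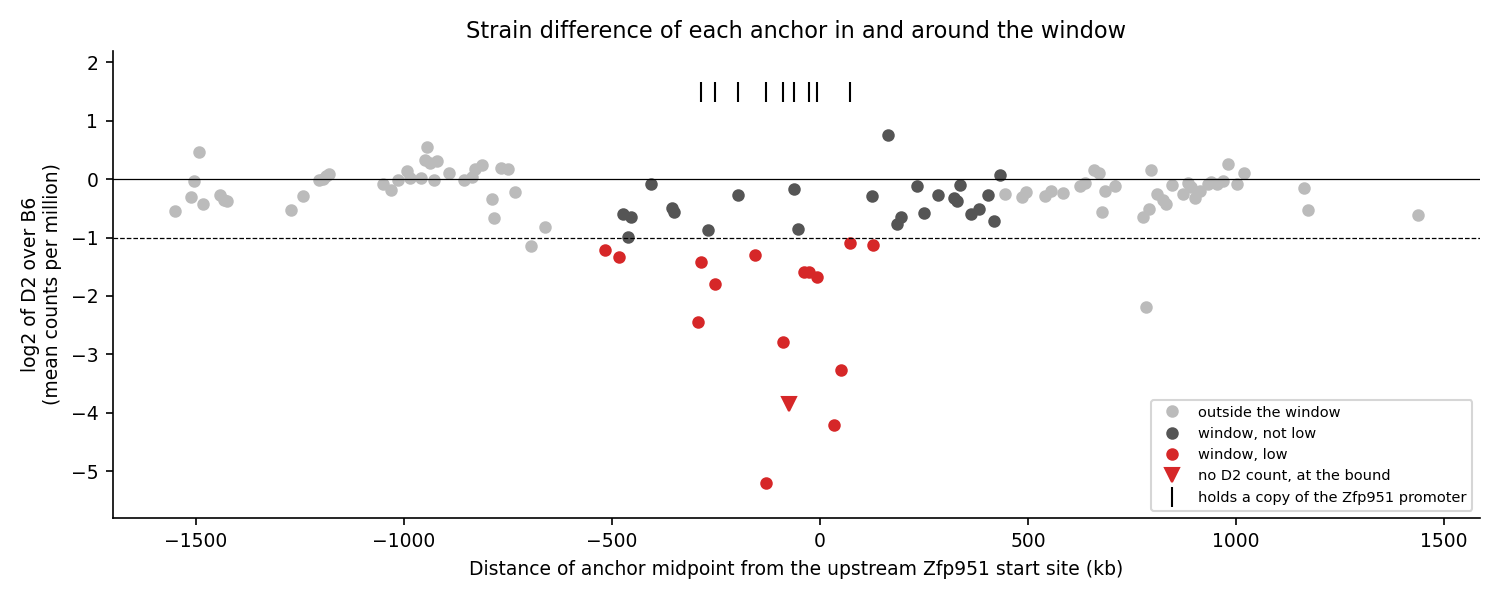
Log2 ratio of D2 over B6 (y axis) of every anchor with at least 20 counts in the window and within 1 Mb of it, by distance from the upstream Zfp951 start site (x axis, kb), with tick marks over anchors that hold a copy of the Zfp951 promoter. The 16 low anchors of the window reach down to -5.20 and are interspersed with anchors that are not low. Of the 9 ticks, 7 lie over low anchors, where 39.0% of the 41 window anchors shown are low.

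Zfp951 itself had 2 anchors over its 3 annotated start sites. The upstream anchor, chr5:104842854-104862891, had 283 and 281 counts in B6 and 85 and 91 in D2. B6 thus had 98.8 ± 2.14 CPM and D2 had 30.8 ± 0.140 (SD, n = 2), at a log2 ratio of -1.68. The replicates of each strain were close together and the strains did not overlap.

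The downstream anchor, chr5:104825480-104841649, covers the start site at 104828957 and had 314 and 326 counts in B6 and 104 and 109 in D2, a log2 ratio of -1.59. D2 thus kept 33.2% of the B6 level there and 31.2% at the upstream anchor. An intronic anchor of Zfp951 at chr5:104819236-104823596 had 98 and 94 counts in B6 and 33 and 31 in D2, a log2 ratio of -1.58. All 3 anchors over the GENCODE gene were low to a similar degree.

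Abcg3 went against the label of a lost locus at its start site. The anchor chr5:104981855-104985717 covers its upstream start site at 104982718, and no anchor covers the downstream one at 104977834. It had 54 and 57 counts in B6 and 41 and 50 in D2, which is 18.6 and 20.4 CPM and 14.8 and 17.0 CPM. The means were 19.5 ± 1.26 and 15.9 ± 1.53 CPM (SD, n = 2), at a log2 ratio of -0.29. The D2 libraries lay below the B6 libraries, with a smaller gap between the strains than between the replicates of either, and edgeR did not call the anchor.

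At the other end of Abcg3, the anchor chr5:104927580-104935846 covers its last exon and had 117 and 117 counts in B6 and 51 and 59 in D2, a log2 ratio of -1.09. Immediately beyond the start site, the anchor chr5:104986789-104989600, over the pseudogene Gm5870, had 52 and 51 counts in B6 and 23 and 24 in D2, a log2 ratio of -1.13. The Abcg3 start site was therefore flanked by low anchors on both sides.

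Anchors with the deepest loss were not over Zfp951 or Abcg3. In the window 6 anchors had a log2 ratio of -2 or less, as had 0.774% of the tested anchors in the table (401 anchors). The deepest measured was chr5:104720596-104740554, which overlaps no annotated gene, with 269 and 280 counts in B6 and 7 and 8 in D2. It fell from 96.2 ± 5.29 to 2.62 ± 0.133 CPM (SD, n = 2), at a log2 ratio of -5.20, and D2 kept 2.73% of the B6 level. In B6 this anchor was about as strong as those over the Zfp951 start sites.

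The second deep anchor, chr5:104900510-104922122, lies between Zfp951 and Abcg3 over the RefSeq pseudogene Gm29716. It had 274 and 287 counts in B6 and 29 and 29 in D2, a log2 ratio of -3.27. The smaller neighbour chr5:104891741-104896011 had 17 and 20 counts in B6 and 1 and 1 in D2. At both anchors the D2 libraries were close together and far below B6.

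On the Zfp33b side of Zfp951, the anchor chr5:104784194-104787028 had 17 and 26 counts in B6 and none in D2, which at 3 counts over the D2 group means at least 14.4-fold higher in B6. The anchor over the pseudogene Gm8258, chr5:104768516-104775890, had 71 and 76 counts in B6 and 15 and 6 in D2, a log2 ratio of -2.79. Further out, chr5:104565614-104567570 had 33 and 22 counts in B6 and 5 and 5 in D2, a log2 ratio of -2.45. These anchors had fewer counts than the deepest anchor, and their ratios are less precise.

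The remaining low anchors were less deep. The Zfp33b anchor, chr5:104569041-104579060, had 98 and 112 counts in B6 and 41 and 38 in D2, a log2 ratio of -1.41. Near the start of the RefSeq gene Gm31255, chr5:104605066-104611070 had 68 and 49 counts in B6 and 24 and 9 in D2, a log2 ratio of -1.80. The anchor chr5:104703522-104705659 had 14 and 32 counts in B6 and 8 and 11 in D2 (-1.29), and was the only low anchor of the window that edgeR did not call.

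Between Mepe and Spp1, the intergenic anchors chr5:104338784-104346978 and chr5:104376308-104378971 formed the first low run. The first had 121 and 132 counts in B6 and 69 and 39 in D2 (-1.22), and the second 46 and 45 in B6 and 17 and 19 in D2 (-1.34). The D2 replicates differed more at the first than at the second. The next 3 anchors towards Spp1, from 104380044 to 104411763, had log2 ratios of -0.60, -0.99 and -0.64.

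Inside the span, some anchors kept their counts. The retained anchor, chr5:104789278-104803442, overlaps the RefSeq Zfp951 gene only with its last part, at the 3′ end of the gene. This anchor lies between the run of 4 low anchors and the run of 6. It had 84.2 and 80.3 CPM in B6 and 82.7 and 63.2 CPM in D2. The means were 82.3 ± 2.76 and 73.0 ± 13.8 CPM (SD, n = 2), at a log2 ratio of -0.17. The strains overlapped there. Its neighbour chr5:104803983-104808989 was intermediate, with 137 and 110 counts in B6 and 79 and 57 in D2 (-0.85).

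The anchor over the start sites of Spp1 and Pkd2, chr5:104430147-104478349, is the widest of the window at 48202 bp and had the most counts. It had 712 and 661 counts in B6 and 774 and 508 in D2, a log2 ratio of -0.09, and D2 replicate 1 lay above and D2 replicate 2 below both B6 libraries. Over BC005561, named Thoc2l in RefSeq, the anchor chr5:104507070-104512205 had 110 and 93 counts in B6 and 86 and 50 in D2 (-0.56). The anchor of the RefSeq gene Gm20385, chr5:104660550-104663996, had 38 and 47 counts in B6 and 44 and 26 in D2 (-0.27), so its strains overlapped. Start sites of Dmp1, Dspp, Ibsp and Mepe, which like Spp1 belong to the genes of bone and tooth matrix proteins, had no anchor.

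At the threshold of -1, the low anchors of the window ended before the Gbp genes. All 14 anchors from 105021333 on had log2 ratios between -0.76 and 0.75, 12 of them below 0. At 8 of the 14 both D2 libraries lay below both B6 libraries, where 28% of all tested anchors in the table do so. At 1, over a Gbp8 start site, they lay above. The anchor with start sites of Gbp4, Gbp8 and Gbp9, chr5:105137309-105149696, had the most counts of these, 123 and 135 in B6 and 100 and 115 in D2 (-0.27). At Gbp10, chr5:105237385-105246391 had 98 and 90 counts in B6 and 54 and 78 in D2 (-0.52). The Gbp6 start site had 20 and 29 counts in B6 and 18 and 34 in D2 (0.07).

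None of Abcg3's relatives elsewhere in the genome had an anchor with D2 below B6 without overlap. Abcg1 had an anchor with a log2 ratio of -0.42, Abcg2 had 3 anchors with ratios of 0.23 to 0.93, and Abcg4 had 1 at 0.10. The strains overlapped at Abcg1, at Abcg4 and at the Abcg2 anchor with 0.23. At the Abcg2 anchors with 0.50 and 0.93 both D2 libraries lay above both B6 libraries. Start sites of Abcg5 and Abcg8 had no anchor.

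The 1842 pairs of the window comprised 545 with both anchors in the window and 1297 with 1 anchor, which joined it to 103 anchors outside. A single count was all that 847 pairs had. Counts in B6 only were also seen for 847 pairs, in D2 only for 351, and in both strains for 644. Over the whole table, 833100 and 822266 pairs had a count in the B6 libraries and 715798 and 803268 in the D2 libraries. The share of pairs seen in 1 strain was not taken over the table, so nothing particular to the window is read from it. Of the 66 pairs with at least 20 counts, 41 had a log2 ratio below 0 and 25 above, with a median of -0.35 beside 0.08 over all pairs with at least 20 counts in the table. D2 lay below B6 without overlap in 29 of the 66, where 17.9% of all such pairs in the table do so, and above in 7 (23.8% in the table). The edgeR fit called 15 of the 66, all lower in D2, and 1.45% of all tested pairs, 0.957% lower in D2. Of the 15, 10 involved an anchor with a log2 ratio of -2 or less, as did 11 of the 66. Calls and anchor ratios rest on the same counts, so nothing is read from this.

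**Figure D3:**
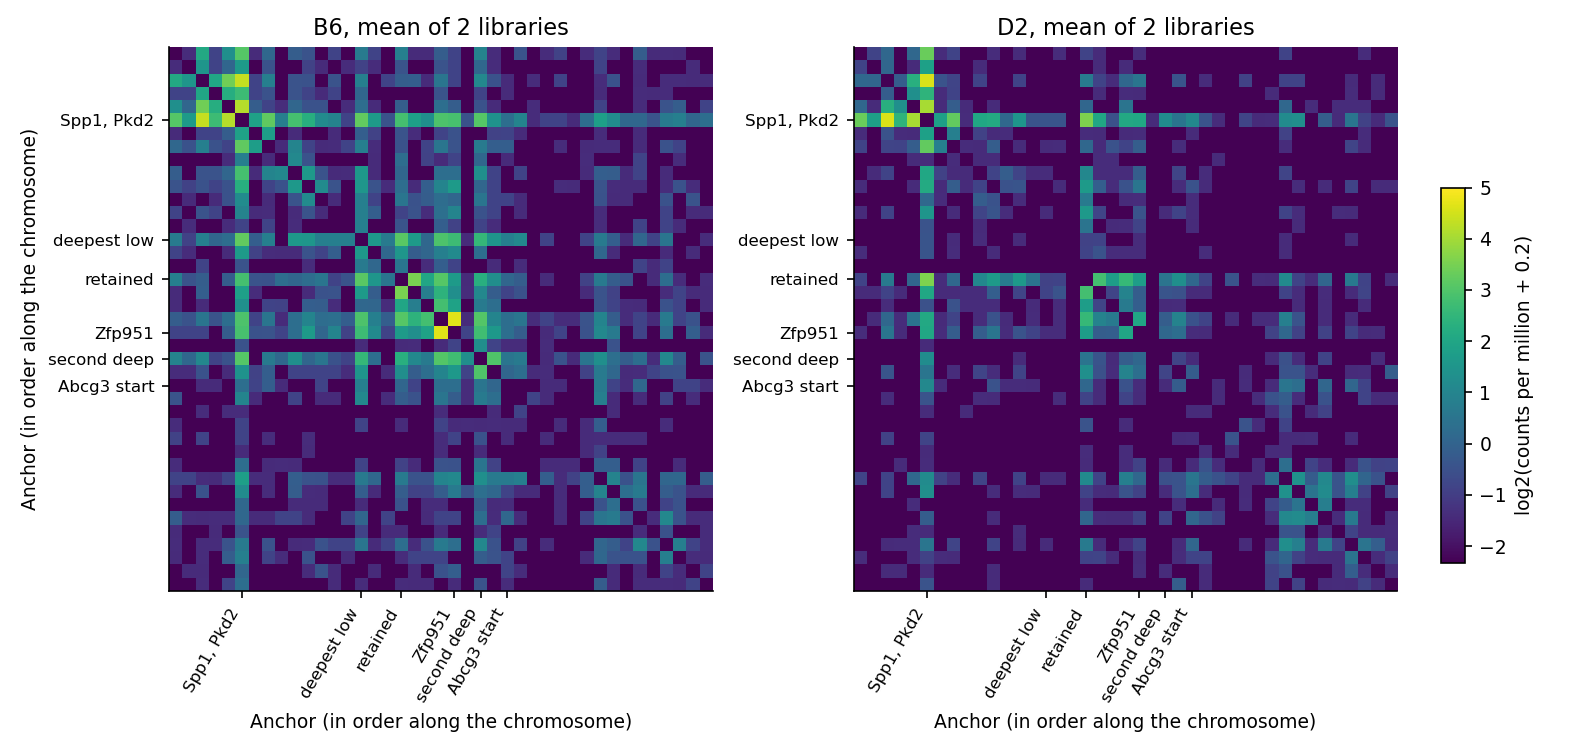
Mean CPM of each pair of the 41 anchors in B6 (left) and D2 (right), as log2 after adding 0.2, with the anchors in chromosome order on both axes. In D2 the rows and columns of the deepest anchor are nearly empty and those of the second deep anchor sparse, while those of the Spp1 and Pkd2 anchor and of the retained anchor are still filled.

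How low a pair was went with how many of its anchors were low. The 88 pairs between low anchors had 400 and 406 counts in B6 and 47 and 53 in D2, a log2 ratio of -3.01. With a low anchor and another anchor of the window that was not low, 249 pairs had 675 and 705 counts in B6 and 291 and 240 in D2 (-1.37). With neither anchor low, 204 pairs had 525 and 514 counts in B6 and 539 and 442 in D2 (-0.08), and the strains overlapped.

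Pairs that left the window followed the same order. With a low anchor inside the window, 486 pairs to outside partners had 416 and 432 counts in B6 and 127 and 133 in D2 (-1.71). When the inside anchor was not low, 811 pairs had 708 and 660 counts in B6 and 678 and 612 in D2 (-0.08). Since the low anchors were chosen by the sum of these pairs, the order is partly set by the choice.

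**Figure D4:**
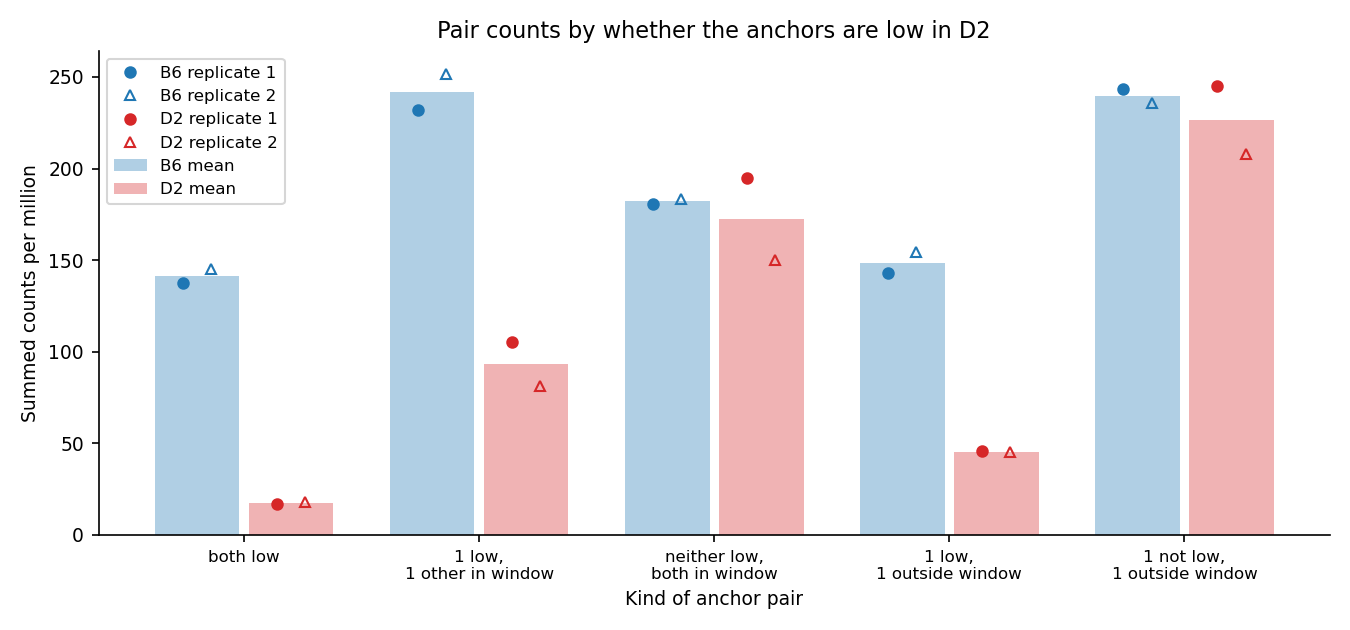
Summed CPM (y axis) of the pairs of the window by whether their anchors were low (x axis); bars are means over 2 libraries and points are the libraries. The D2 points lie far below the B6 points where an anchor was low, and the strains overlap in both groups with no low anchor.

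The strongest pair of the window in B6 joined the Zfp951 anchors to each other over 19.308 kb, with 75 and 70 counts in B6 and 7 and 15 in D2, a log2 ratio of -2.74. Pairs of the deepest anchor were lost with partners on both sides. With the downstream Zfp951 anchor, 102.989 kb away, it had 22 and 21 counts in B6 and none in D2, and with the second deep anchor, 180.741 kb away, 13 and 19 in B6 and none in D2. At 3 counts over the D2 group these are at least 14.3-fold and 10.7-fold higher in B6. Pairs among the 6 deepest anchors together had 40 and 47 counts in B6 and none in D2.

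With the upstream Zfp951 anchor the deepest anchor had 21 and 15 counts in B6 and 1 and 0 in D2. The second deep anchor had 25 and 21 counts in B6 and 2 and 2 in D2 with the downstream Zfp951 anchor, and 27 and 17 in B6 and 2 and 0 in D2 with the anchor at the 3′ end of Abcg3. In all of these pairs both D2 libraries were at or near 0.

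The anchors of Zfp951 were low beyond their pairs with the deepest anchors. Without those 6 partners, the upstream anchor had 234 and 239 counts in B6 and 80 and 89 in D2 (-1.49), and the downstream anchor 259 and 277 in B6 and 101 and 107 in D2 (-1.37). Pairs with partners outside the window had log2 ratios of -1.40 and -0.90. The downstream anchor's pair with the 3′ end of Abcg3 kept its counts, with 4 and 6 in B6 and 3 and 7 in D2.

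Abcg3's start-site anchor had few counts with any single partner. Without the 6 deepest partners it had 47 and 46 counts in B6 and 41 and 49 in D2 (-0.05), and with them alone 7 and 11 in B6 and 0 and 1 in D2. The strains overlapped without these partners. The 6 partners were chosen for low sums that include these pairs, so the shift is partly set by the choice. The same holds for the other anchors given without these partners. At the 3′ end of Abcg3, the log2 ratio without those partners was -0.68.

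The strain difference of the retained anchor depended on the partner. With the deepest anchor it had 25 and 24 counts in B6 and 0 and 2 in D2, and with the second deep anchor 13 and 14 in B6 and 2 and 5 in D2. With the Spp1 and Pkd2 anchor, 342.112 kb away, it had 19 and 21 counts in B6 and 38 and 29 in D2 (0.75), so that D2 lay above B6 in both libraries. Pairs with the anchor at 104586676 (5 and 1 in B6, 9 and 8 in D2) and with the Gm20385 anchor (1 and 1 in B6, 10 and 6 in D2) were also higher in D2. Without the 6 deepest partners it had 194 and 171 counts in B6 and 226 and 178 in D2 (0.15), and the strains overlapped.

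With the upstream Zfp951 anchor the retained anchor had 10 and 7 counts in B6 and 9 and 9 in D2, and the strains overlapped. With the downstream one it had 29 and 18 in B6 and 16 and 17 in D2 (-0.51), so that D2 lay below B6 in both libraries. The pair with its neighbour at 104803983 had 39 and 26 counts in B6 and 28 and 10 in D2, with the D2 libraries far apart.

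**Figure D5:**
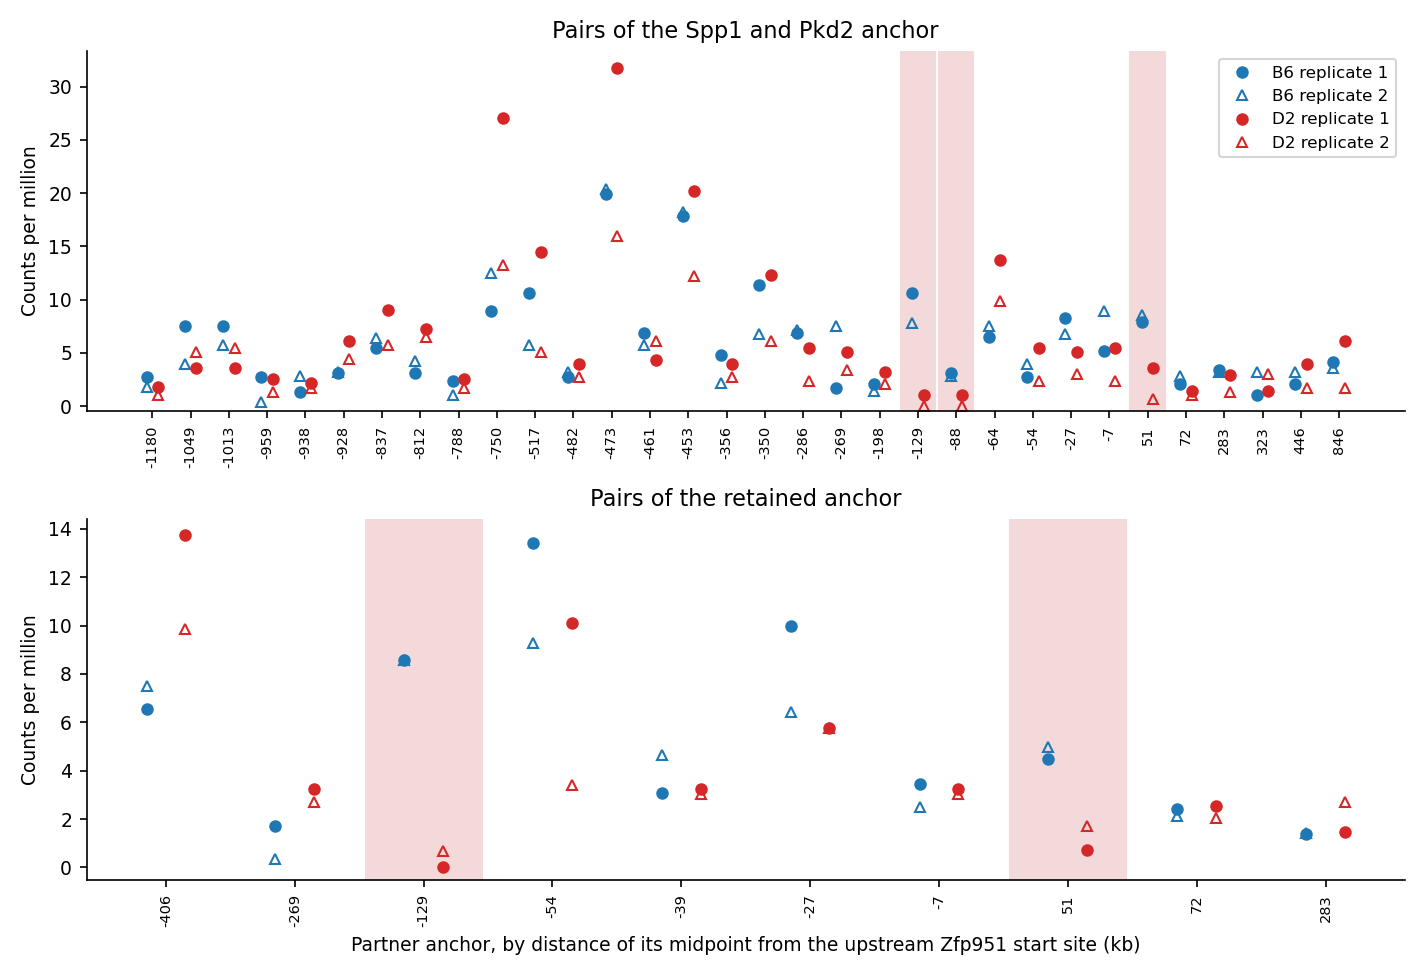
CPM (y axis) of the pairs with at least 20 counts of the Spp1 and Pkd2 anchor (top) and of the retained anchor (bottom), by partner in chromosome order (x axis, distance of the partner from the upstream Zfp951 start site in kb), with 1 point per library and shading over partners with a log2 ratio of -2 or less. Both anchors are low in D2 with every shaded partner, and the retained anchor is higher in D2 with the Spp1 and Pkd2 anchor.

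The Spp1 and Pkd2 anchor had the same partner dependence. With the deepest anchor, 276.327 kb away, it had 31 and 22 counts in B6 and 3 and 0 in D2 (-4.09), and with the second deep anchor 23 and 24 in B6 and 10 and 2 in D2 (-1.94). With the anchor over Sparcl1, outside the window, it had 26 and 35 counts in B6 and 75 and 39 in D2 (0.91). Farther out, the anchors starting at 104017019 (16 and 18 in B6, 25 and 17 in D2) and 104044699 (9 and 12 in B6, 20 and 19 in D2) were also among its partners with the most D2 counts. With the BC005561 anchor it had 33 and 19 counts in B6 and 34 and 18 in D2 (0.02). Over all partners but the 6 deepest, B6 had 640 and 601 counts and D2 had 757 and 505 (0.03).

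The 5 intergenic anchors between Mepe and Spp1 were low in D2 with each other but not with Spp1. Their 10 pairs among themselves had 72 and 97 counts in B6 and 31 and 31 in D2 (-1.45). The pair of the anchors starting at 104380044 and 104401602 had 24 and 36 counts in B6 and 12 and 15 in D2 (-1.16). Their 5 pairs with the Spp1 and Pkd2 anchor together had 169 and 149 counts in B6 and 207 and 124 in D2 (0.07). The pair from 104380044 to that anchor had the most D2 counts of the window, with 58 and 57 in B6 and 88 and 47 in D2 (0.25). The pair from 104401602 had 52 and 51 counts in B6 and 56 and 36 in D2 (-0.15), and that from 104338784 had 31 and 16 in B6 and 40 and 15 in D2 (0.26). In each of these the strains overlapped. With partners outside the window they had 182 and 198 counts in B6 and 102 and 86 in D2 (-1.01).

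Pairs that spanned the longest low run, with an anchor on each side, had 613 and 571 counts in B6 and 392 and 393 in D2 over chromosome 5, a log2 ratio of -0.59. Rows of the whole table at the same distances had -0.14. The spanning pairs included low anchors outside the run, among them the deepest anchor. Without the 6 deepest anchors their log2 ratio was -0.41, with other low anchors still among them. Pairs inside the run had 198 and 191 counts in B6 and 25 and 38 in D2 (-2.63), and pairs from the run to other anchors 707 and 743 in B6 and 253 and 244 in D2 (-1.54). Pairs of the window wholly beyond the run on the Gbp side had 243 and 228 counts in B6 and 198 and 293 in D2 (0.05). On that side the strains overlapped.

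Pairs of the Gbp anchors were low in D2 with the 16 low anchors and not among themselves. Pairs between the 16 low anchors and the 14 Gbp anchors had 139 and 156 counts in B6 and 35 and 49 in D2 (-1.82). Pairs among the Gbp anchors had 67 and 62 counts in B6 and 65 and 102 in D2 (0.36).

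The sequence of the window is repetitive, which bears on how reads can be placed. The median share of 75-mers, the read length, found once in the reference was 88.9% (range 39.5 to 100%) in low anchors, 92.4% (range 2.60 to 100%) in the other anchors of the window, and 99.7% in the 75 anchors within 1 Mb on each side. For 31-mers the medians were 58.4%, 58.6% and 93.9%. The deepest anchor had 93.6% and the retained anchor 94.5% of its 75-mers found once, and the anchors over the Zfp951 start sites 83.2% (upstream) and 93.7% (downstream). The other anchors with a log2 ratio of -2 or less had smaller shares than the deepest anchor: 39.5, 66.8, 81.7, 84.5 and 86.0%. Small shares were also found in anchors that were not low, among them the Gm20385 anchor with 62.0%.

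Anchors under 20 counts were chr5:104615229-104625453, with 0 and 1 counts in B6 and none in D2, and chr5:104668155-104678379, with 3 and 0 in B6 and none in D2. Both are 10224 bp wide and share 97.0% of their 75-mers, and under 3% of the 75-mers of either are found once. At chr5:105021333-105024473, over a Gbp8 start site, 25.6% of the 75-mers were found once, with 4 and 6 counts in B6 and 7 and 10 in D2.

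A low count cannot be told apart here from less of the mark, fewer contacts or D2 sequence that is not placed on the reference, which was built from C57BL/6J. The part of such differences in sequence was not tested.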

How the data were processed

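The deposited series table gives raw counts of read pairs per anchor pair in 4 libraries; its counts equalled those of the deposited single-library files, whose last column was taken as the authors' q-value (a p-value adjusted per library; used for 1 alternative). The submitters' processing notes name HiC-Pro 2.11.4, DESeq2 and mm10, the build used here; other settings are not given in the sources used here. Per the labels' protocols, chromatin was cut with DpnII and sequenced as 75 bp pairs.

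An anchor's count is the sum over its pairs. CPM used library totals, log2 ratios are of strain means, and a strain with no count was set to 3 counts over the group. The whole table was fitted with edgeR 4.0.16 (limma 3.58.1, R 4.3.3): quasi-likelihood test, TMM, strain only, at least 20 counts, Benjamini-Hochberg, adjusted p under 0.05, checked on simulated counts. DESeq2 1.42.0 was an alternative. Matches came from blastn 2.17.0. Lines are the replicates. The members and lists were chosen with earlier results of these data known. Named were Zfp951, Abcg3, start-site anchors of the window's protein-coding genes, the low anchors and their neighbours, the pairs with the most counts, and the Abcg family; the retained anchor, Gm8258, Gm5870, Gm31255, Gm20385 and Zfp33b, and the pair groups, were singled out after their values were seen.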

Additional observations from a re-analysis of the deposited data

How the results depend on the processing

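Depth limits single pairs most: with counts of 0 to 3 in D2, a pair's ratio is only roughly known. With TMM scaling, or chromosome 5 outside the window as the total, no sum over the window or a group of pairs moved by more than the replicate spread and the longest low run kept its ends. Of the single anchors followed, the one at 104842854 moved to -1.65 with TMM, and the one at 104986789 to -1.10 with TMM and -1.15 with the chromosome 5 total. Leaving out a library gave log2 ratios of -0.92 to -0.65 for the window, -1.18 to -0.84 for pairs inside it and -1.67 to -1.59 for the Zfp951 anchors. Without the 6 deepest anchors, a choice made after seeing the data, the ratio was -0.43 for the window, -1.42 for the Zfp951 anchors, -0.051 for the Abcg3 start site and -0.41 for spanning pairs. Low anchors numbered 25 at a threshold of 1.5-fold lower, 6 at -2 and 9 with partners outside the window only. The longest run moved with these settings: 7 anchors from 104164218 to 104411763 at 1.5-fold, 3 from 104720596 to 104787028 at -2, and 2 from 104338784 to 104378971 with outside partners only. If 1 anchor could interrupt it, the longest run reached 104989600. Leaving out a library gave 14 to 19 low anchors, and without D2 replicate 1 the longest run started at 104803983 and held 7 anchors.

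For the whole table, edgeR called 5054 anchors and 1565 pairs. Without a count minimum it called 2563 anchors and 759 pairs, of which 463 were higher in D2, against 531 of 1565. DESeq2 called 1307 anchors and 81 pairs. Leaving out a library gave 2533 to 7700 anchors and 343 to 2131 pairs. With the replicate block there were 5903 anchors and 1343 pairs. Deviations of same-numbered libraries had a correlation of 0.0076 over anchors, so no pairing by number was seen over the whole table. A batch shared by same-numbered libraries was not tested.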
